A study of Homo sapiens with 10 samples.

Results

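The 10 genes described here encode the surface receptors that start the extrinsic route of apoptosis, the adaptor and caspase that carry the signal inward, and the proteins that hold it back. They were FAS, TNFRSF10A, TNFRSF10B, TNFRSF10C, TNFRSF10D, FADD, CASP8, CFLAR, XIAP and BIRC2, taken by symbol from the 32738 genes of the count tables, and each symbol was found there. The samples were HCT-116 cells, an established human colorectal carcinoma line labelled WT, either untreated or exposed to 200 nM doxorubicin (DOX) for 24 h and then kept for 6 days in drug-free medium. Doxorubicin is an anthracycline that traps topoisomerase II on DNA and so breaks it. 2 untreated and 2 DOX libraries of single cells (10x Genomics, 3′ end) were analysed, and the 6 bulk mRNA samples of the series were not analysed here.

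Fas and the TRAIL receptors carry a death domain on their inner side. When ligand clusters them, FADD docks on that domain and gathers pro-caspase-8, which cleaves itself and then the executioner caspases. Cells hold this route in check at several points. Decoy receptors bind TRAIL without passing on the signal, and c-FLIP (the product of CFLAR) occupies the place of caspase-8 on FADD. The inhibitor of apoptosis proteins XIAP and cIAP1 (the product of BIRC2) are further brakes. FAS and TNFRSF10B are known targets of p53 after DNA damage.

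Promoter windows of 300 bases around annotated gene starts came from RefSeq on GRCh38.p14 and were at hand for 6 of the 10 genes, in 16 windows. They were searched on both strands for the p53 half-site consensus, a motif of 10 letters that reads the same on both strands. It was found in 2 of these 16 windows, 1 of FAS and 1 of CASP8, and in 6.63% of all 35116 windows. The FAS stretch is shown, with the motif in capitals, because FAS is the only receptor of the group with a window and its RNA differed between the conditions.
FAS, chr10:88991279-88991348 (GRCh38.p14, plus strand): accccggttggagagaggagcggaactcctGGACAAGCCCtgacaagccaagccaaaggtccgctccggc
The motif ends 112 bases before the third of the 3 annotated FAS starts. The same 70 bases occur once on hg19 chromosome 10, at chr10:90751036-90751105, where the motif starts 652 bases into FAS, inside 12 of its 16 annotated transcripts. It overlaps 2 annotated exons and is intronic in the other transcripts that span it. The match describes these letters and not binding. TNFRSF10A, TNFRSF10B, TNFRSF10C and TNFRSF10D have no window shown.

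In these single-cell data a UMI stands for 1 captured RNA molecule. Cells of at least 20000 UMIs are called deep, and they were divided by the share of their UMIs from mitochondrial genes into low-MT cells (below 8%) and high-MT cells (8% or more). The untreated libraries held 3572 and 2137 deep low-MT cells, and the DOX libraries held 1307 and 1080, of 4701, 2528, 8000 and 8000 barcodes in all. Deep high-MT cells numbered 395 and 173 without the drug and 579 and 651 after it. Median depth was 72676 to 84829.5 UMIs per deep low-MT cell in the 4 libraries. In deep high-MT cells it was 44195 and 48708 UMIs in the untreated libraries against 73930 and 81710 in the DOX libraries. Just under the limit, at 7 to 8%, lay 187 and 183 deep cells of the DOX libraries, and just over it, at 8 to 9%, lay 92 and 126. Any pair of libraries shared 5 to 24 barcode sequences. Of 10 markers of colon epithelium, EPCAM, KRT8, KRT18 and KRT19 stood at or above 299 CPM (a counts-per-million unit) in deep low-MT cells of every library, while CDX1, LGALS4, KRT20 and VIL1 stayed at or below 1.60. The 9 markers of blood, stromal and endothelial cells found in the tables summed, on the same scale, to 5.61 and 5.82 in low-MT cells of the untreated libraries and to 9.14 and 10.5 in those of the DOX libraries (in high-MT cells 7.74, 5.43, 13.6 and 14.2), led by COL1A1 and CD68, with PTPRC at or below 0.366 and CD3E and MS4A1 near 0 in low-MT cells. Their part in the results was not tested.

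As a check of the treatment, CDKN1A, the p53 target that encodes the cell cycle inhibitor p21, stood at 31.9 and 29.96 CPM in untreated deep low-MT cells and at 267 and 225 CPM in DOX cells (log2 fold change 2.99 ± 0.09 SE, adjusted p = 1.78e-07). MDM2, which encodes the ubiquitin ligase of p53, went from 62.6 and 61.0 CPM to 149 and 140 CPM (1.23 ± 0.06, adjusted p = 2.69e-06). For the markers CPM are shares of all UMIs. For every other gene they were computed from UMIs summed over the cells of a library and scaled by the trimmed mean of M-values (TMM) within each comparison, so the level of a gene can differ slightly from one comparison to the next.

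On hg19, the build of the count tables, TNFRSF10B (chr8:22877646-22926544, minus strand), TNFRSF10C (chr8:22960434-22974958, plus), TNFRSF10D (chr8:22993101-23021540, minus) and TNFRSF10A (chr8:23047965-23082615, minus) lie side by side. CFLAR (chr2:201980877-202041410, plus) and CASP8 (chr2:202098166-202226559, plus) are likewise neighbours. FAS lies at chr10:90750414-90775542 (plus), FADD at chr11:70049402-70053496 (plus), BIRC2 at chr11:102217942-102249401 (plus) and XIAP at chrX:122993562-123047822 (plus). ACTA2, on the opposite strand, overlaps FAS by 683 bases, and it rose from 1.87 and 1.71 CPM to 8.40 and 6.74 CPM with DOX. CFLAR-AS1 overlaps CFLAR by 17546 bases on the opposite strand and stood at 2.67 to 2.77 CPM in all 4 libraries (log2 fold change 0.04, adjusted p = 0.763). The strand setting of the counting is not given in the sources used here, so reads of these pairs could not be told apart with certainty.

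The first question was how the 10 genes differed between DOX and untreated cells when only deep low-MT cells were counted. FAS, TNFRSF10C, TNFRSF10B and BIRC2 were higher in DOX cells and FADD was lower, so the receptors that rose included a death receptor for Fas ligand, one for TRAIL and one decoy. TNFRSF10A, TNFRSF10D, CASP8, CFLAR and XIAP did not pass the test. The 4 genes higher and 1 lower compare with 28.2% of 21563 tested genes called higher and 26.4% called lower at an adjusted p below 0.05, and the median log2 fold change was 0.16 over the 10 genes and 0.04 over all genes.

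FAS stood at 7.72 and 7.02 CPM in the untreated libraries and at 18.2 and 15.5 CPM in the DOX libraries. Both DOX libraries lay above both untreated ones, and the fold was 2.28 (log2 1.19 ± 0.09, adjusted p = 1.82e-05). TNFRSF10B, the TRAIL receptor also called DR5, stood at 37.4 and 35.7 CPM against 52.1 and 53.4 CPM. Its fold of 1.44 was smaller than that of FAS but the replicates lay close together (log2 0.53 ± 0.06, adjusted p = 0.000104). TNFRSF10A, the other signalling TRAIL receptor (DR4), stood at 38.1 and 40.4 CPM against 39.4 and 38.9 CPM, with overlapping groups (log2 fold change 0.00 ± 0.06, adjusted p = 0.963).

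The decoys also parted. TNFRSF10C, the decoy anchored to the membrane without any inner domain, stood at 2.42 and 2.22 CPM in untreated and 6.30 and 6.02 CPM in DOX cells. That was the largest fold of the group, 2.65 (log2 1.41 ± 0.09, adjusted p = 8.12e-06), on 643 and 431 summed UMIs in the untreated and 690 and 656 in the DOX libraries. TNFRSF10D, the decoy with a truncated death domain, stood at 31.1 and 30.6 CPM against 27.9 and 30.2 CPM, and did not pass (−0.09 ± 0.06, adjusted p = 0.265).

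FADD, the adaptor shared by Fas and the TRAIL receptors, was the only one of the 10 genes called lower in DOX cells, at 16.0 and 14.7 CPM against 11.0 and 12.6 CPM (−0.38 ± 0.08, adjusted p = 0.00360). The groups did not overlap, although the DOX libraries differed from each other about as much as the untreated ones did. CASP8, which encodes the initiator caspase, stood at 30.7 and 29.3 CPM against 34.2 and 30.6 CPM, and the lower DOX library was level with the higher untreated one (0.11 ± 0.07, adjusted p = 0.203).

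Among the brakes, BIRC2 was higher in DOX cells, at 24.9 and 25.0 CPM against 32.3 and 32.3 CPM (0.37 ± 0.06, adjusted p = 0.000552). CFLAR stood at 34.3 and 30.7 CPM against 36.8 and 36.3 CPM, and XIAP, the direct inhibitor of executioner caspases, at 40.5 and 42.4 CPM against 45.7 and 46.1 CPM. Neither of these passed (CFLAR 0.17 ± 0.07, adjusted p = 0.0593, XIAP 0.15 ± 0.06, adjusted p = 0.0528).

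These calls depend on the scale. Scaling by total UMIs in place of TMM moved the median of all genes from 0.04 to 0.21 and the calls from 6077 higher and 5695 lower to 8472 higher and 3259 lower, and on that scale CFLAR, XIAP and CASP8 were called higher too (log2 fold changes 0.34, 0.31 and 0.28) and the values of TNFRSF10A and TNFRSF10D turned positive (0.16 and 0.08, not called). Leaving out any 1 library kept the 4 calls higher and the 1 lower, with CFLAR added without untreated replicate 1 (adjusted p = 0.0105) and XIAP without untreated replicate 2 (adjusted p = 0.0240).

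**Figure D1:**
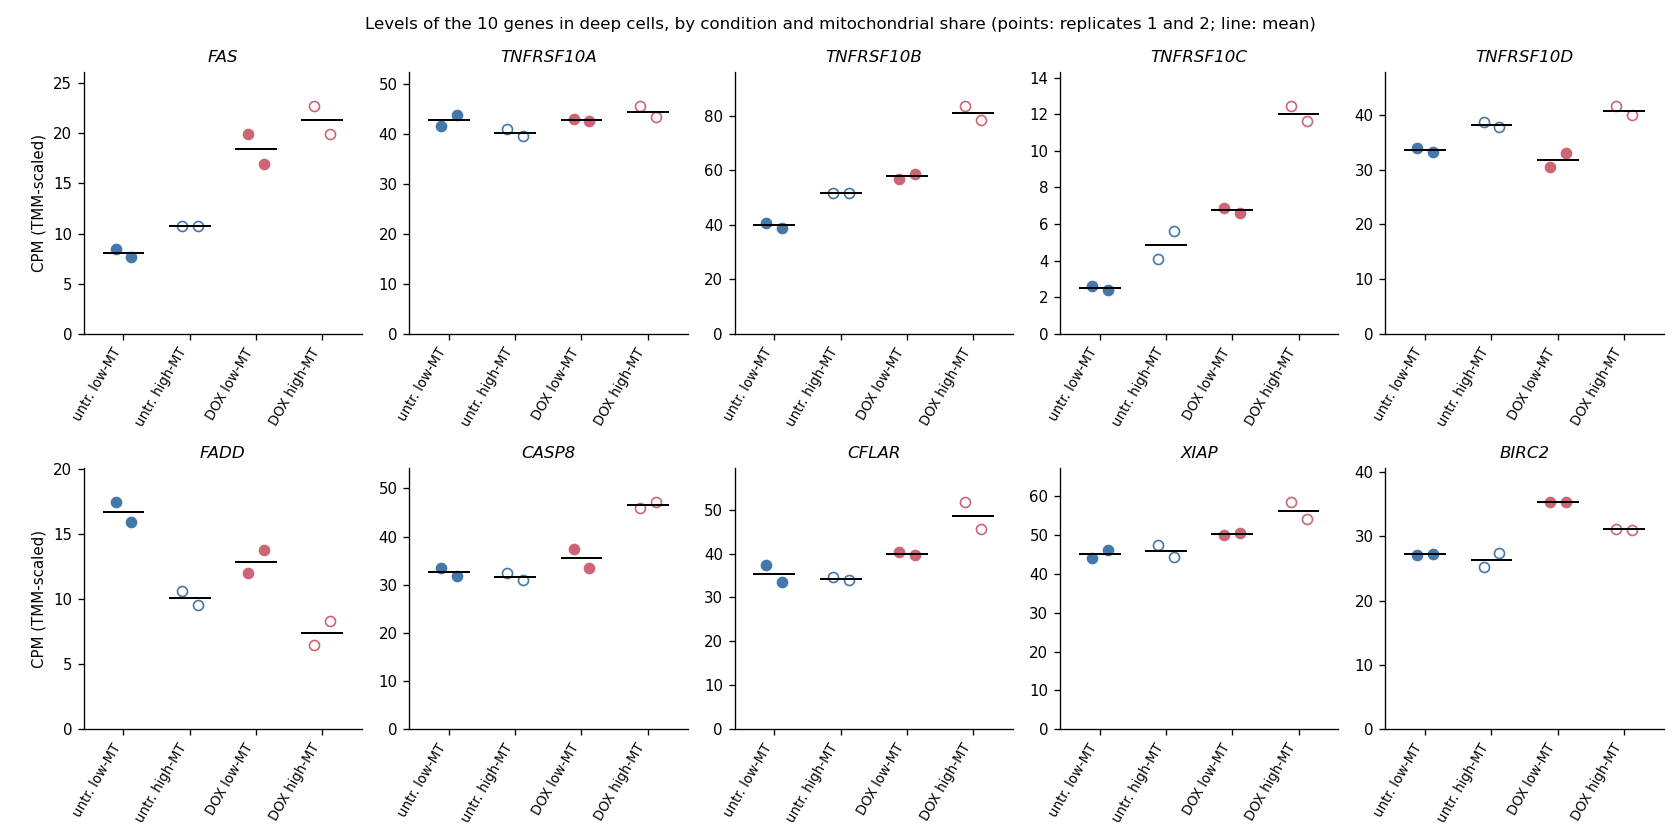
Level of each gene (CPM, TMM-scaled over the 8 sums, each axis from 0) in deep low-MT (filled) and high-MT (open) cells of untreated (blue) and DOX (red) libraries, 1 point per library and a line at the mean. FAS, TNFRSF10B and TNFRSF10C were lowest in untreated low-MT cells and highest in DOX high-MT cells, from 8.42 and 7.64 to 22.7 and 19.9 CPM for FAS, whereas FADD ran the other way, from 17.5 and 16.0 to 6.46 and 8.30 CPM.

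Cell by cell, the share of deep low-MT cells with at least 1 UMI was compared after every cell was thinned at random to 20000 UMIs, so that depth was equal. For FAS that share was 11.3% and 12.3% in untreated and 27.8% and 23.5% in DOX cells, with exact (Clopper-Pearson) 95% limits of 10.3 and 12.4, 10.9 and 13.7, 25.4 and 30.3, and 21.0 and 26.2 percent. Without thinning these shares were 35.3%, 38.0%, 57.7% and 59.0%. So FAS RNA was found in more cells after DOX, and the share of cells with 2 or more thinned UMIs went from 1.32% and 1.497% to 7.42% and 4.54%.

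TNFRSF10C was found in 3.67% and 3.70% of untreated and 11.0% and 11.0% of DOX cells after thinning, and in 14.3%, 15.2%, 31.2% and 32.5% without it. TNFRSF10B was found in 46.8% and 47.1% against 55.8% and 58.1% of thinned cells, and the share with 2 or more UMIs was 15.4% and 15.5% against 25.9% and 27.9%. FADD was found in 24.9% and 24.4% of untreated and 19.6% and 21.1% of DOX cells. TNFRSF10D hardly moved in this measure, with 41.2% and 43.1% against 41.3% and 41.8%. Thinned shares follow the scale of total UMIs: for TNFRSF10A they were 45.9% and 49.7% against 53.2% and 52.2%, where the TMM-scaled level did not differ beyond its error, and no change is read from that share. The intervals cover counting error only, and a single cell line offers no cell type without these genes from which to read the share given by free RNA.

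Deep high-MT cells gave the same question other cells of the same libraries, so the answer is not independent of the first. The paper left out cells with so high a mitochondrial share, in a filter meant to take out dying cells and those of low quality. Whether the deep high-MT cells were dying or damaged was not tested. FAS, TNFRSF10B, TNFRSF10C, CASP8, CFLAR and XIAP were higher in DOX than in untreated cells of this class, and none was called lower. In this class 22.5% of 19058 tested genes were called higher and 22.5% lower, and the median log2 fold change was 0.42 over the 10 genes and 0.02 over all genes. FAS stood at 11.8 and 11.5 CPM against 25.1 and 21.8 CPM (1.01 ± 0.12, adjusted p = 0.000313), TNFRSF10B at 56.6 and 55.1 against 92.5 and 85.7 CPM (0.67 ± 0.10, adjusted p = 0.000896), and TNFRSF10C at 4.49 and 5.99 against 13.8 and 12.7 CPM (1.38 ± 0.16, adjusted p = 0.000271). For all 3 receptors the groups lay well apart, although the untreated sums held only 80 and 56 UMIs of TNFRSF10C.

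Inside the cell, CASP8 stood at 35.7 and 33.0 CPM in untreated and 50.8 and 51.7 CPM in DOX high-MT cells (0.57 ± 0.10, adjusted p = 0.00189). CFLAR, its competitor on FADD, stood at 38.0 and 36.2 against 57.4 and 49.9 CPM (0.53 ± 0.11, adjusted p = 0.00445). The RNAs of initiator and brake were thus both higher in the DOX sums of this class. Whether they rose in the same cells was not tested. XIAP stood at 52.2 and 47.2 against 64.9 and 59.2 CPM (0.31 ± 0.11, adjusted p = 0.0371). It lost the call in 6 of 14 alternatives, among them without either DOX library and in DESeq2 (adjusted p = 0.0556).

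BIRC2 (27.7 and 29.3 against 34.6 and 34.0 CPM, adjusted p = 0.0530) and FADD (11.7 and 10.2 against 7.17 and 9.09 CPM, adjusted p = 0.0513) did not pass here. Of 14 alternatives, FADD passed in 5 and BIRC2 in 6, both of them without untreated replicate 2 among others. TNFRSF10A (0.16 ± 0.10) and TNFRSF10D (0.11 ± 0.10) did not pass either. The high-MT class differed between conditions in more than the drug. Its share of UMIs from cell cycle genes, given below, was lower in DOX libraries, and the part of this in the results was not tested. Its median mitochondrial share was 9.30% and 9.77% in untreated and 12.7% and 11.6% in DOX libraries. Its untreated sums held 20036287 and 9392724 UMIs against 44220673 and 56825530. Restricted to a share of 8 to 15%, a range chosen after seeing the data, 8 of the 10 genes were called higher, beside 3842 of 17610 genes tested. At 20% or more, where 25 and 18 untreated cells remained, 3 were, beside 1451 of 13450 genes tested, so calls were fewer over the whole table as well. Scaling by total UMIs gave 9 genes called higher and moved the split of all genes from 4297 higher and 4288 lower to 5962 and 2867.

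**Figure D2:**
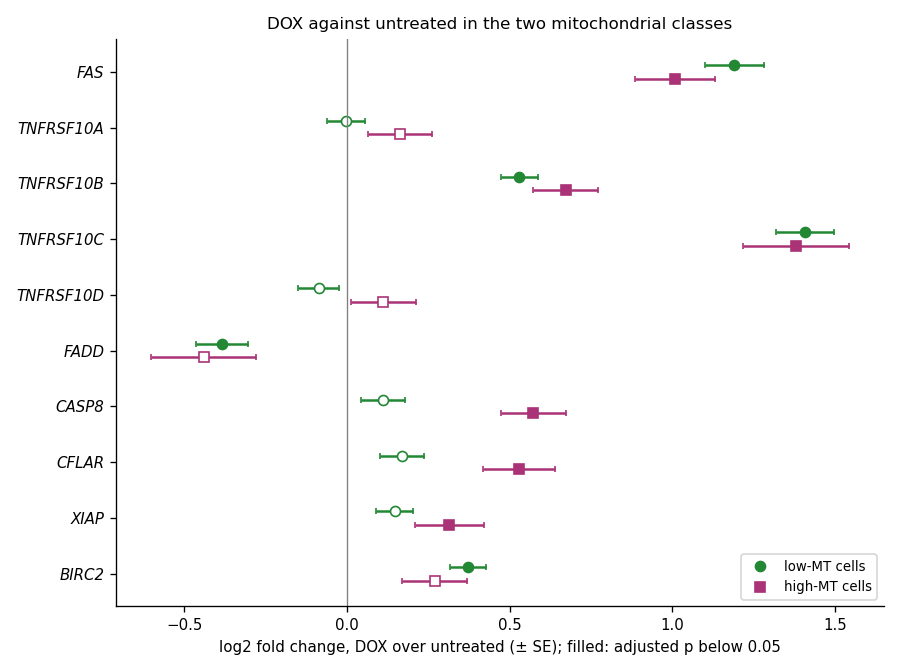
Log2 fold change of DOX over untreated (horizontal axis, ± SE worked back from the F test of 2 against 2 libraries) for each gene. Low-MT cells are circles and high-MT cells squares, filled where the adjusted p was below 0.05. CASP8 (0.11 against 0.57) and CFLAR (0.17 against 0.53) show the widest gaps between the classes, and TNFRSF10C (1.41 and 1.38) almost none.

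Whether the DOX effect differed between the classes was tested as an interaction over 8 sums, 2 per library, with the library as block. It was larger in high-MT cells for CASP8 (difference of log2 fold changes 0.44 ± 0.09, adjusted p = 0.0125) and CFLAR (0.33 ± 0.09, adjusted p = 0.0389), against 3.5% of 21692 genes called in that direction and 7.98% in the other. CASP8 was at 33.5 and 31.9 CPM in low-MT and 32.5 and 30.9 CPM in high-MT untreated cells, and at 37.5 and 33.5 against 45.8 and 47.2 CPM in DOX cells. Within untreated cells the class difference of CASP8 was −0.04 ± 0.07 (adjusted p = 0.684), but 0.19 ± 0.07 (adjusted p = 0.0426) under total-UMI scaling and −0.27 ± 0.11 (adjusted p = 0.0881) without untreated replicate 1. In the interaction, CFLAR lost the call without untreated replicate 1 (adjusted p = 0.0834) and without DOX replicate 1 (adjusted p = 0.228), and CASP8 without DOX replicate 2 (adjusted p = 0.0591). For the other 8 genes the difference did not pass, from −0.20 ± 0.11 for FAS to 0.17 ± 0.09 for TNFRSF10D.

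Within DOX, high-MT cells had more RNA than low-MT cells of TNFRSF10C (log2 difference 0.83 ± 0.11), TNFRSF10B (0.48 ± 0.06), CASP8 (0.39 ± 0.06), TNFRSF10D (0.36 ± 0.06), CFLAR (0.28 ± 0.06), FAS (0.21 ± 0.06) and XIAP (0.16 ± 0.06), and less of FADD (−0.81 ± 0.08) and BIRC2 (−0.18 ± 0.06). The background here was 27.7% of genes called higher and 27.9% lower, with a median of 0.10 over all genes, so FAS and XIAP stood little above the median gene. TNFRSF10B was at 57.0 and 58.5 CPM in low-MT and 83.4 and 78.3 CPM in high-MT DOX cells, and FADD at 12.01 and 13.8 against 6.46 and 8.30 CPM. Without DOX replicate 1 the calls of FAS (adjusted p = 0.0868), CFLAR (0.0879), XIAP (0.436) and BIRC2 (0.112) were lost, without DOX replicate 2 those of FAS (0.196) and BIRC2 (0.119), and without untreated replicate 1, which shares the fit, those of FAS (0.0945) and XIAP (0.245). Under total-UMI scaling the value of BIRC2 turned to 0.09, and the split of all genes moved from 6002 higher and 6052 lower to 9680 and 3909.

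Within untreated cells the high-MT class was higher in TNFRSF10C (0.88 ± 0.16, 2.64 and 2.41 against 4.09 and 5.62 CPM), FAS (0.41 ± 0.09), TNFRSF10B (0.37 ± 0.06) and TNFRSF10D (0.19 ± 0.07), and lower in FADD (−0.73 ± 0.09, 17.5 and 16.0 against 10.7 and 9.53 CPM). The high-MT sums behind these values held 80 and 56 UMIs of TNFRSF10C, 210 and 107 of FAS, and 209 and 95 of FADD. Of all genes 14% were called higher and 22.8% lower, or 6271 higher and 2748 lower in place of 3041 and 4950 under total-UMI scaling. Without untreated replicate 1 TNFRSF10C was the only 1 of the 10 called higher (1.00 ± 0.20, adjusted p = 0.00150), FAS (adjusted p = 0.171) and TNFRSF10B (0.169) lost their calls, TNFRSF10D turned to −0.04, and XIAP (−0.28, adjusted p = 0.0426) and TNFRSF10A (−0.37, adjusted p = 0.00708) were called lower. TNFRSF10D lost its call without each other library as well (adjusted p from 0.0551 to 0.191).

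The cell cycle moved with these classes. The share of UMIs on the 53 genes found of a list of 54 cell cycle genes, none of them among the 10, had a median of 0.653% and 0.663% in untreated and 0.484% and 0.495% in DOX deep low-MT cells, and of 0.0882% and 0.115% in DOX high-MT cells. In untreated high-MT cells the median was 0.575% and 0.564%. Cells below 0.2% numbered 54 of 3572 and 32 of 2137 in untreated low-MT cells, but 406 of 1307 and 300 of 1080 in DOX low-MT cells and 355 of 579 and 382 of 651 in DOX high-MT cells. In untreated high-MT cells they numbered 47 of 395 and 19 of 173. Deep low-MT cells of each library were therefore ranked by this share and the lowest and the highest of 3 equal parts compared, with the library as block. The parts are ranges of a score and not cell types.

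Within DOX, the most cycling cells had less RNA of 8 of the 10 genes than the least cycling cells of the same library, and more of FADD. The background was 29% of 19486 genes called lower and 32.4% called higher. FAS stood at 26.7 and 23.3 CPM in the least cycling and at 13.4 and 11.2 CPM in the most cycling cells (log2 difference −1.02 ± 0.07, adjusted p = 3.21e-06). TNFRSF10C stood at 9.64 and 9.67 against 3.68 and 3.63 CPM (−1.40 ± 0.10, adjusted p = 7.09e-06), and TNFRSF10B at 65.6 and 64.9 against 44.1 and 47.0 CPM (−0.52 ± 0.04, adjusted p = 1.77e-05). Each of these receptors was thus higher in the least cycling cells of both DOX libraries.

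The brakes followed the receptors. CFLAR stood at 48.2 and 48.7 CPM in the least cycling and 31.9 and 30.7 CPM in the most cycling DOX cells (−0.63 ± 0.05, adjusted p = 9.85e-06), and BIRC2 at 40.7 and 40.6 against 26.9 and 28.7 CPM (−0.55 ± 0.05, adjusted p = 2.07e-05). TNFRSF10D was lower in cycling cells as well (−0.37 ± 0.06, adjusted p = 0.000499). XIAP (−0.14 ± 0.04) and TNFRSF10A (−0.13 ± 0.04) passed by little and lost the call when any 1 of the 4 libraries was left out (adjusted p from 0.0711 to 0.286). FADD went the other way, from 9.67 and 11.3 to 13.0 and 14.7 CPM (0.41 ± 0.07, adjusted p = 0.000910), and CASP8 did not pass (−0.08 ± 0.04, adjusted p = 0.138). Total-UMI scaling moved the split of all genes from 6313 higher and 5657 lower to 5050 and 7057, and CASP8 was then called lower (−0.21).

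In untreated cells the same ranking separated little. Only TNFRSF10B was lower in the most cycling cells (40.6 and 39.9 against 34.8 and 33.1 CPM, −0.24 ± 0.04, adjusted p = 0.00595) and only CASP8 was higher (28.9 and 28.2 against 31.7 and 31.0 CPM, 0.14 ± 0.04, adjusted p = 0.0461), against 11% and 10.7% of all genes. FAS, at 8.01 and 6.97 against 8.28 and 7.95 CPM, did not pass (adjusted p = 0.293). When untreated replicate 1 or 2 was left out, neither TNFRSF10B (−0.27 and −0.19) nor CASP8 (0.14 and 0.16) passed. Without either DOX library, which shares the fit, more genes were called in each direction, among the 10 and over all genes alike. Total-UMI scaling moved the split of all genes from 2077 higher and 2137 lower to 3507 and 1308. The least cycling parts were unlike in the 2 conditions, since their median cell cycle share was 0.540% and 0.546% in untreated but 0.0518% and 0.0620% in DOX cells.

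The parts were cut within each library and spanned unlike ranges of the cell cycle share. Its medians went from 0.0518% and 0.062% to 0.699% and 0.691% in DOX cells. In untreated cells they went only from 0.5405% and 0.546% to 0.802% and 0.815%, so unlike contrasts are compared here. The contrast between parts differed between DOX and untreated cells for 9 of the 10 genes, 8 towards a lower level in cycling DOX cells and FADD towards a higher one (background 19.3% and 27.7%). It was largest for FAS (−1.13 ± 0.09, adjusted p = 2.70e-05), TNFRSF10C (−1.11 ± 0.15, adjusted p = 0.000429), CFLAR (−0.76 ± 0.07, adjusted p = 3.54e-05) and BIRC2 (−0.51 ± 0.07, adjusted p = 0.000322), and these 4 passed whichever library was left out. The smaller differences of TNFRSF10B (−0.28 ± 0.06), TNFRSF10D (−0.23 ± 0.07), CASP8 (−0.22 ± 0.06), XIAP (−0.21 ± 0.06) and FADD (0.26 ± 0.09) lost their calls without untreated replicate 1. Those of TNFRSF10D, CASP8, XIAP and FADD did so without untreated replicate 2 as well, and that of XIAP without DOX replicate 1 (adjusted p = 0.0502). Total-UMI scaling turned the split of all genes from 5398 higher and 3762 lower to 3741 and 5839, and FADD was then not called (0.07, adjusted p = 0.547).

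**Figure D3:**
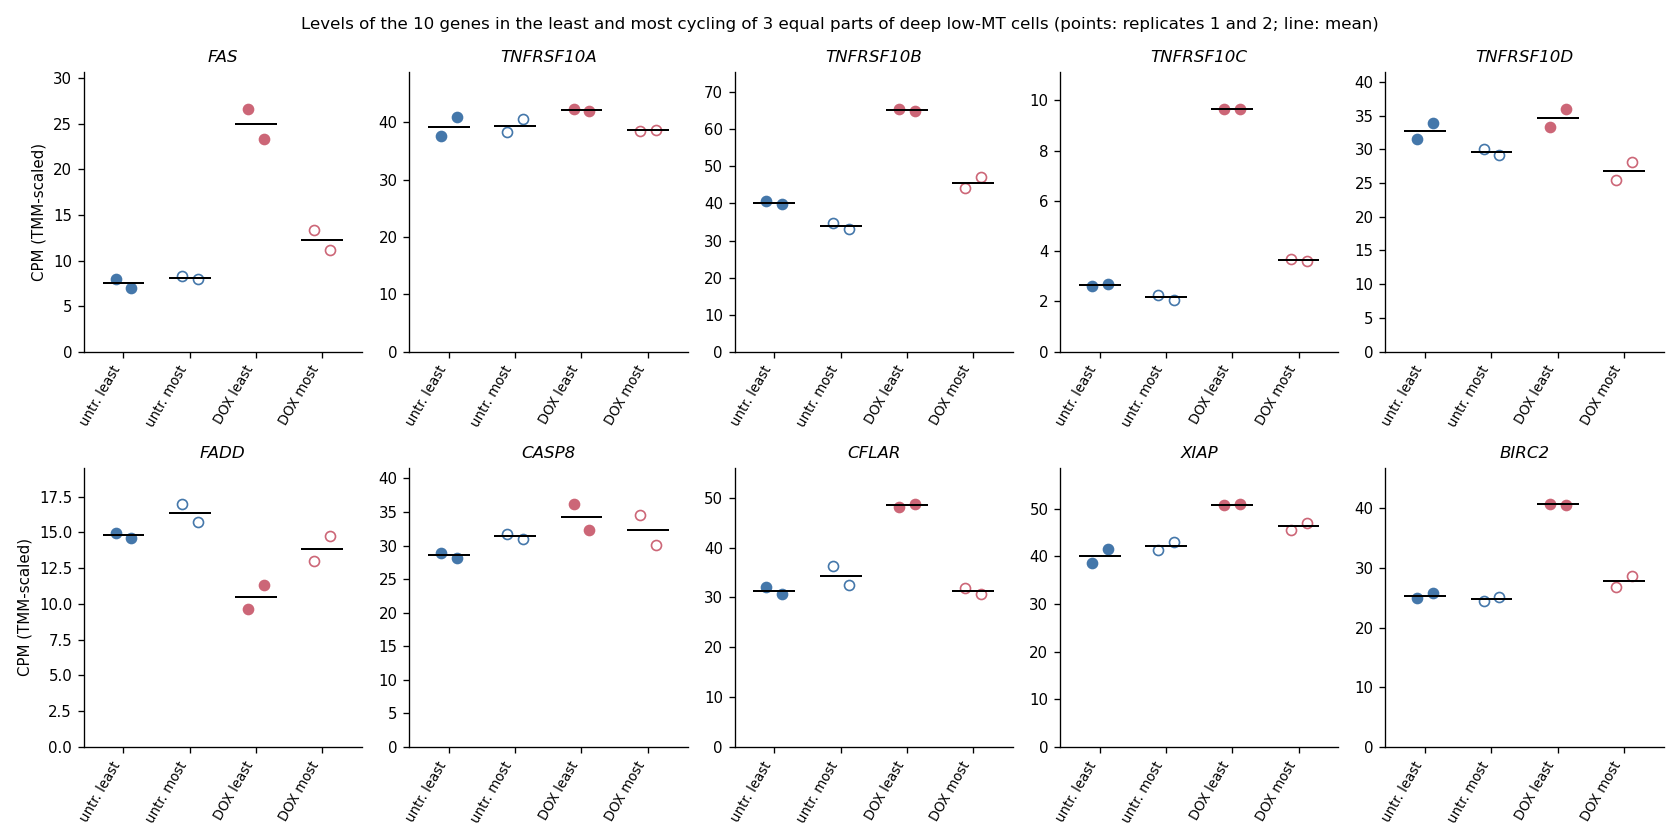
Level of each gene (CPM, TMM-scaled over the 8 sums, each axis from 0) in the least cycling (filled) and most cycling (open) of 3 equal parts of deep low-MT cells, for untreated (blue) and DOX (red) libraries, 1 point per library and a line at the mean. FAS, TNFRSF10C, CFLAR and BIRC2 stand apart in the least cycling DOX cells, with CFLAR at 48.2 and 48.7 CPM against 30.7 to 36.2 CPM in all other sums.

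DOX and untreated cells were then compared at like cell cycle shares, in ranges chosen after seeing the data. Among deep low-MT cells with a share of 0.5 to 0.8% (2624, 1540, 520 and 443 cells), FAS stood at 6.49 and 6.03 CPM in untreated and 11.5 and 10.4 CPM in DOX cells (0.81 ± 0.09, adjusted p = 0.000154). TNFRSF10C stood at 2.17 and 1.94 against 3.74 and 3.43 CPM (0.80 ± 0.13, adjusted p = 0.00197), and TNFRSF10B at 35.1 and 34.1 against 44.7 and 47.8 CPM (0.42 ± 0.07, adjusted p = 0.00161). These 3 receptors were the calls among the 10 genes in this range, where 2250 of 19208 genes were called higher and 2358 lower. BIRC2 (0.15 ± 0.07, adjusted p = 0.139) and FADD (−0.16 ± 0.10, adjusted p = 0.246) did not pass in this range, and CFLAR stood at 32.3 and 28.6 against 28.7 and 28.0 CPM (−0.11 ± 0.07, adjusted p = 0.339).

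Among deep low-MT cells below 0.2% (54, 32, 406 and 300 cells), the conditions overlapped for FAS and TNFRSF10B. FAS stood at 27.2 and 24.5 CPM in untreated and 28.9 and 26.4 CPM in DOX cells (0.09 ± 0.14, adjusted p = 0.710), and TNFRSF10B at 67.0 and 76.3 against 71.7 and 71.7 CPM (0.01 ± 0.11, adjusted p = 0.968). MDM2 overlapped too, at 228 and 259 against 255 and 256 CPM, while CDKN1A stood at 211 and 327 against 546 and 533 CPM. TNFRSF10C stood at 9.94 and 4.28 against 10.4 and 10.7 CPM (0.49 ± 0.29, adjusted p = 0.290). Of the 10 genes BIRC2 alone passed, beside 1169 higher and 1435 lower of 16510 genes, at 30.4 and 34.3 against 44.3 and 45.3 CPM (0.48 ± 0.12, adjusted p = 0.0319). The untreated sums held 3968819 and 2642601 UMIs, so the errors are wider here, and the difference between the 2 ranges was not tested.

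**Figure D4:**
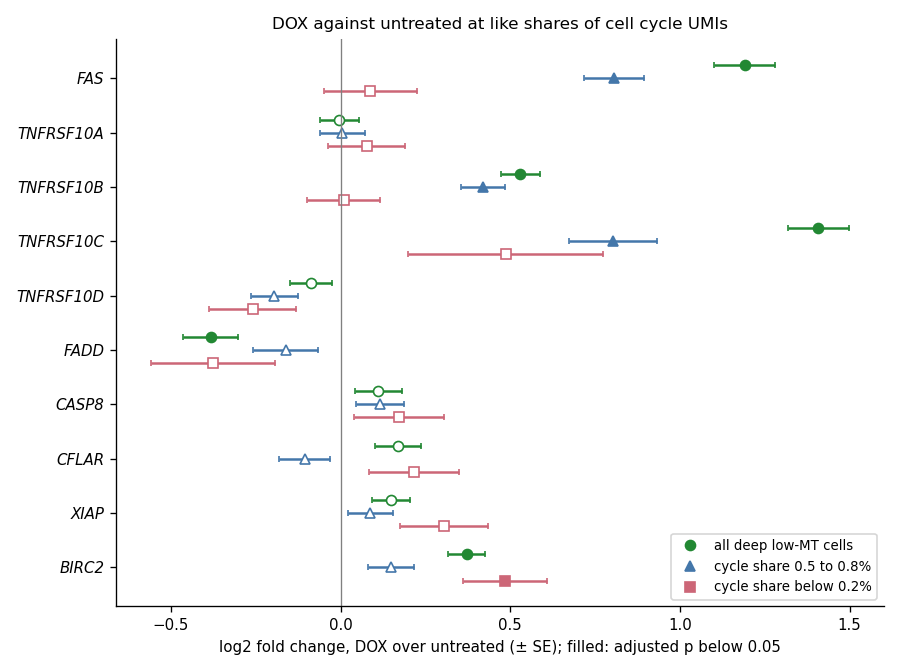
Log2 fold change of DOX over untreated (horizontal axis, ± SE, 2 against 2 libraries) for each gene in all deep low-MT cells (circles), in those with a cell cycle share of 0.5 to 0.8% (triangles) and in those below 0.2% (squares), filled where the adjusted p was below 0.05. FAS falls from 1.19 to 0.81 and 0.09 across the 3 sets, while BIRC2 is at 0.37, 0.15 and 0.48.

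Holding the cell cycle share below 0.2% also changed the comparison of the mitochondrial classes within DOX, as an alternative added after seeing the data. FAS was then lower in high-MT cells, at 26.7 and 22.1 CPM against 32.6 and 29.6 CPM (−0.35 ± 0.08, adjusted p = 0.00782), where it had been higher in the comparison of all cells. BIRC2 (−0.45 ± 0.06, adjusted p = 0.00111) and FADD (−0.60 ± 0.11, adjusted p = 0.00428) stayed lower. TNFRSF10B (0.17 ± 0.06, adjusted p = 0.0442) and CASP8 (0.32 ± 0.08, adjusted p = 0.0117) stayed higher, while CFLAR was level (−0.01 ± 0.06, adjusted p = 0.884) and TNFRSF10C (0.27 ± 0.10, adjusted p = 0.0774), TNFRSF10D (0.10 ± 0.08) and XIAP (0.11 ± 0.06) no longer passed.

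Across single cells the 10 genes were only weakly related to each other. Pearson's r over log2(thinned UMIs + 1) of the 1307 and 1080 deep low-MT DOX cells was highest between TNFRSF10B and TNFRSF10C (0.195 and 0.228), and between TNFRSF10B and TNFRSF10D (0.181 and 0.225). For FAS with TNFRSF10B it was 0.158 and 0.111. In untreated cells these pairs had r of 0.0528 to 0.0591 for FAS with TNFRSF10B and 0.0143 to 0.0513 for the others. FADD had r between −0.0506 and 0.0425 with each of the other 9 genes in DOX cells. These are descriptions of cells that share a library, with sparse counts.

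Of 6122 genes with a mean of at least 0.5 thinned UMIs in DOX cells, the 5 whose pattern was most like FAS, by the lower r of the 2 DOX libraries, were CDKN1A (0.354 and 0.289), GDF15 (0.252 and 0.238), MDM2 (0.263 and 0.233), FHL2 (0.230 and 0.266) and BTG2 (0.213 and 0.227). With TNFRSF10B they were the nuclear RNA NEAT1 (0.324 and 0.293), PPM1D (0.280 and 0.295), ZHX2 (0.271 and 0.275), BCAS3 (0.277 and 0.269) and MDM2 (0.368 and 0.260). The same genes had r of 0.0225 to 0.190 in the untreated libraries.

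The rest of the pathway was described from 7 lists of 54 genes, all found in the tables, of which 49 were tested in deep low-MT cells. DOX cells were higher in 13 and lower in 16 of them, with a median log2 fold change of −0.04. Over all genes 28.2% were called higher and 26.4% lower, so these shares lay near the background, and the smaller counts per list below are descriptions to be read against the same background. Ligands were scarce. FASLG, the ligand of Fas, had 1 UMI in all deep low-MT cells together, and TNFSF10, which encodes TRAIL, rose from 13 and 17 to 63 and 37 UMIs (2.77 ± 0.40, adjusted p = 0.000469), still at or below 0.576 CPM. TNFSF15 (2.43 ± 0.50) and LTA (1.26 ± 0.42) were also called higher at 0.229 CPM or less, and TNFSF12 was not called (0.14 ± 0.10).

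Of 5 other receptors tested, EDAR (1.37 ± 0.20) and TNFRSF25 (0.71 ± 0.12) were higher, TNFRSF1A, the main TNF receptor, was lower (51.1 and 43.3 against 37.8 and 37.7 CPM, −0.32 ± 0.08, adjusted p = 0.00762), and TNFRSF21 was not called. TNFRSF6B, the soluble Fas ligand decoy, had no UMI in any deep cell. Among 10 adaptors and kinases tested none was higher and 4 were lower: TRAF2 (−0.64 ± 0.07), which links TNF receptors to cIAP proteins, DAXX (−0.40 ± 0.06), FAF1 (−0.34 ± 0.07) and DEDD2 (−0.27 ± 0.08). RIPK3, the kinase of necroptosis, had no UMI in any deep cell. The other 6 had no call.

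Of 9 caspases and mitochondrial links, CASP10, the close relative of CASP8, rose from 0.937 and 1.05 to 2.80 and 2.12 CPM (1.31 ± 0.16, adjusted p = 0.000184), and APAF1, the scaffold of the apoptosome, rose as well (0.50 ± 0.08, adjusted p = 0.000765). 5 were lower, among them CYCS, which encodes cytochrome c (598 and 513 against 334 and 349 CPM, −0.70 ± 0.09, adjusted p = 0.000223), and CASP2 (−0.32 ± 0.06).

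Of 8 further IAPs and their antagonists, 3 rose and 2 fell. BIRC3, which encodes cIAP2 and is the nearest relative of BIRC2, rose from 1.40 and 1.34 to 16.0 and 14.2 CPM (3.46 ± 0.09, adjusted p = 6.41e-08). Its fold thus far exceeded that of BIRC2. XAF1, an antagonist of XIAP, rose from 9 and 3 to 49 and 35 UMIs (3.86 ± 0.43, adjusted p = 0.000124), and NAIP by little (0.25 ± 0.09). BIRC5, which encodes survivin and is made mainly in dividing cells, fell from 246 and 240 to 125 and 130 CPM (−0.93 ± 0.06, adjusted p = 1.21e-05).

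Of 9 other brakes 3 rose and 3 fell, with TNFAIP3, which encodes the ubiquitin-editing enzyme A20, at 1.19 and 1.44 against 3.03 and 3.67 CPM (1.35 ± 0.14, adjusted p = 8.27e-05) and CYLD, a deubiquitinase, at 0.46 ± 0.07. FAIM (−0.59 ± 0.07) and BFAR (−0.45 ± 0.06) were lower. Of the 4 genes of the linear ubiquitin complex and its deubiquitinase only OTULIN was called, lower (−0.25 ± 0.09, adjusted p = 0.0314), and RBCK1, SHARPIN and RNF31 were not. In high-MT cells 10 of 47 tested genes of these lists were higher and 12 lower, near the 22.5% of all genes called in each direction there.

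**Figure D5:**
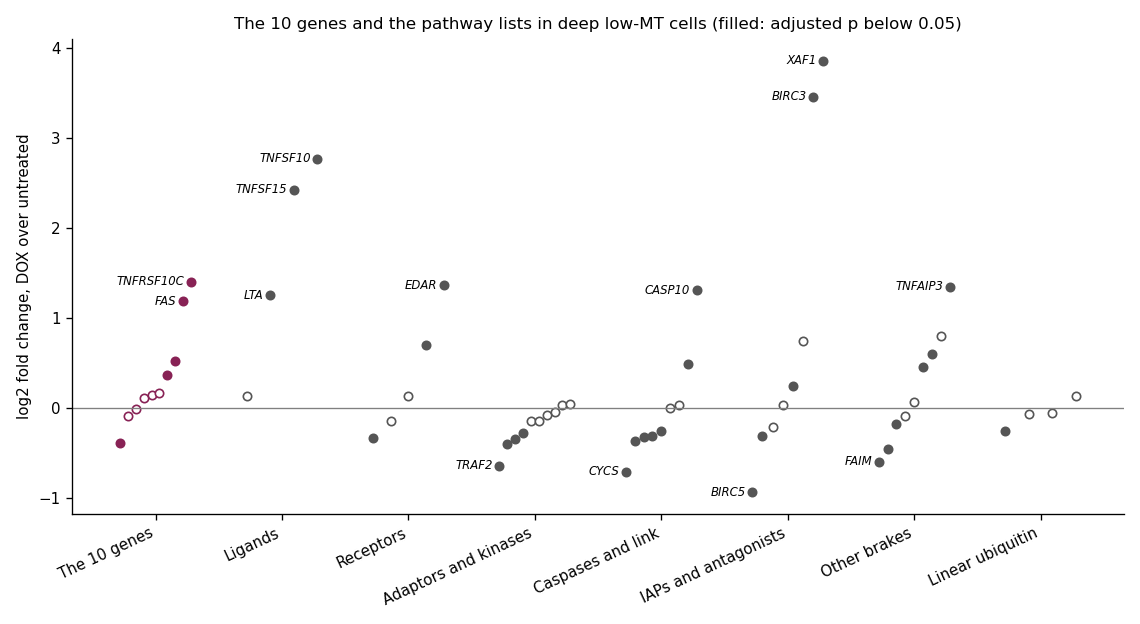
Log2 fold change of DOX over untreated in deep low-MT cells (vertical axis, 2 against 2 libraries) for the 10 genes (purple) and for the tested genes of 7 pathway lists (grey), 1 point per gene, filled where the adjusted p was below 0.05. The highest points, XAF1 (3.86), BIRC3 (3.46) and TNFSF10 (2.77), are not among the 10 genes, whose values run from −0.38 (FADD) to 1.41 (TNFRSF10C).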

How the data were processed

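The authors deposited whole-number UMI counts per gene and barcode for 4 single-cell libraries, made with Cell Ranger (7.2.0 in the file headers, 7.0.0 in the submitters' processing notes) on hg19, with 8000 barcodes forced in DOX libraries. Counts were summed per library over the cells of a class (at least 20000 UMIs, mitochondrial share below, or at least, 8%). Sums were tested with edgeR 4.0.16 (quasi-likelihood, TMM, filterByExpr, Benjamini-Hochberg over all genes), 2 against 2 libraries, or with the library as block where 2 sums came from 1 library. The SE is approximate: the size of the log2 fold change divided by the square root of the F statistic of its test. The fits were also run on simulated counts, drawn separately for each sum with a fixed spread. That simulation does not reproduce sums that share a library. The labels do not say that libraries came from separate cultures, so p-values measure the spread between these libraries only. Alternatives were DESeq2 1.42.0, scaling, filters, depth and mitochondrial limits, thinning, and leaving out each library. No doublet caller was run, and a fit without the 5% of cells with most UMIs stood in. The 10 genes and all lists were chosen with earlier results of these data known. Besides the 10 genes, the text names CDKN1A and MDM2, up to 4 genes per list with the smallest adjusted p in deep low-MT cells, and the 5 genes most like FAS and TNFRSF10B; FASLG, TNFRSF6B, RIPK3, ACTA2 and CFLAR-AS1 were named after their values were seen. PIDD1 and OTULIN were matched by Ensembl ID. How reads in introns or on the opposite strand were counted is not given in the sources used here.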

Additional observations from a re-analysis of the deposited data

Results flagged for a closer look

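Effects that differed between classes of cells, by a test of the difference itself, were found for CASP8 (0.44) and CFLAR (0.33), whose DOX effect on the log2 scale was larger in deep high-MT than in deep low-MT cells. Both genes lost this call in some alternatives. Within DOX, CFLAR was level between the classes at a cell cycle share below 0.2%. The contrast between the most and the least cycling deep low-MT cells differed between DOX and untreated libraries for FAS (−1.13), TNFRSF10C (−1.11), CFLAR (−0.76), BIRC2 (−0.51), TNFRSF10B (−0.28), TNFRSF10D (−0.23), CASP8 (−0.22), XIAP (−0.21) and FADD (0.26), negative where cycling DOX cells had relatively less. The parts were cut within each library and spanned a wider range of cell cycle shares in DOX than in untreated cells.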

How the results depend on the processing

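Of 760 recomputed values of the 10 genes over all comparisons, 613 kept direction and side of the threshold, 66 lost and 48 gained a call, 26 that were called in neither fit changed sign, and 7 with a call in either fit turned over; the cause was not tested. These 7 were FADD for DOX in cells below 20000 UMIs (0.53), CASP8 (0.19) in untreated and BIRC2 (0.090) in DOX high-MT against low-MT cells under total UMIs, TNFRSF10D (−0.038) and XIAP (−0.28) in untreated high-MT against low-MT cells without untreated replicate 1, and FAS (−0.35) and CFLAR (−0.013) in DOX high-MT against low-MT cells at a cell cycle share below 0.2%.

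In deep low-MT cells the 4 genes higher with DOX became 7 under total UMIs, thinning or any mitochondrial share. They became 1 at a cell cycle share below 0.2%, and the 1 lower became 0 below 20000 UMIs and at either cell cycle range. Under total UMIs all genes went from 6077 higher and 5695 lower to 8472 and 3259, so the 7 are to be read against that shift. In deep high-MT cells 6 higher became 3 at a mitochondrial share of 20% or more, and 0 lower became 1 without the filter on low counts, at 40000 UMIs or more, or with the replicate block. The replicate block gave 6 higher and 1 lower in low-MT cells and 5 and 1 in high-MT cells. Same-numbered libraries did not deviate together (r = 0.0066 over 21563 and −0.035 over 19058 genes). This cannot settle whether they were paired, because counting noise also lowers r, and the labels do not say.

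Leaving out each library gave 4 to 5 higher and 1 lower for DOX in low-MT cells, 5 to 7 and 0 to 1 in high-MT cells, 1 to 2 larger effects in high-MT cells, 4 to 7 higher and 1 to 2 lower in high-MT against low-MT DOX cells, and 1 to 3 higher and 1 to 3 lower in untreated ones, where TNFRSF10D went from −0.038 to 0.181 and XIAP from −0.28 to 0.0935. For the most against the least cycling cells it gave 0 to 3 higher and 0 to 3 lower in untreated cells, and for the difference from DOX 0 to 1 higher and 4 to 8 lower. With 1 library left in a condition its spread is taken from the other. Of high-MT against low-MT DOX cells, 2 lower became 1 under total UMIs or at 8 to 15%, and 7 higher became 2 at a cell cycle share below 0.2%. At 8 to 15% the 2 larger effects became 1. The 1 gene higher in cycling untreated cells became 4 under total UMIs, 2 without the filter and 0 when thinned, and the 1 higher in the difference became 0 under total UMIs, without the filter and when thinned.

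Counts over all genes moved by over 1.5 times at most from 6077 higher and 5695 lower to 1169 and 1435 (DOX, low-MT cells, cell cycle share below 0.2%) and from 4297 and 4288 to 1451 and 1078 (high-MT cells, 20% or more). In the other comparisons they ranged over alternatives from 3247 to 9680 higher and 3909 to 6891 lower (mitochondrial classes, DOX), 1108 to 6271 and 2748 to 6206 (untreated), 558 to 1474 and 384 to 1909 (their difference), 295 to 3724 and 174 to 3787 (cycling, untreated) and 2224 to 5839 lower (difference in cycling). Depth limits the small untreated sums, such as 687155 and 427954 UMIs at a mitochondrial share of 20% or more and 3968819 and 2642601 UMIs at a cell cycle share below 0.2%.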
